A study of Homo sapiens with 6 samples.

Results

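The genes of the TGF-beta and BMP signalling pathway were compared between IGROV1Sen and IGROV1Res cells. The list of 45 genes was made by symbol, with earlier results of these data known. It covers ligands, receptors, SMAD proteins, their regulators and direct target genes. Of these, 37 were found among the 14646 genes of the count table, each in a single row, and all 37 had enough reads to be tested. TGFB1, INHBA, FST, GREM1, NOG, SMAD9, ZEB2 and SNAI2 were not analysed here.

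IGROV1 is an established *PIK3CA*-mutated ovarian cancer cell line. IGROV1Sen is its parental, GDC0032-sensitive form, and IGROV1Res is the GDC0032-resistant form, which was derived from the parental cells by months of exposure to rising concentrations of GDC0032, a beta-sparing PI3K inhibitor. RNA of each form was sequenced in 3 libraries. The library titles hold the letters UT, which are not spelled out, and the labels name no drug at harvest. In the study's methods, cells were given GDC0032 or DMSO before RNA was extracted. Which of these the libraries had, if any, is not stated, and no treatment was assumed. Each comparison is between a cell line and 1 resistant derivative of it. The labels do not say whether the libraries of a group came from separate cultures, and the p-values then measure only the spread between these libraries, which may be technical.

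TGF-beta, activins and BMPs are secreted dimers that bring together type I and type II serine/threonine kinase receptors. The type II receptor phosphorylates the type I receptor, which phosphorylates receptor-regulated SMADs: SMAD2 and SMAD3 in the TGF-beta and activin branch, and SMAD1, SMAD5 and SMAD9 in the BMP branch. These bind SMAD4, enter the nucleus and bind DNA with other factors. In epithelial cells TGF-beta is known for growth arrest and for epithelial-mesenchymal transition (EMT), whereas BMPs induce the ID genes, whose products bind and inhibit basic helix-loop-helix transcription factors.

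The libraries held 12808922 to 15241394 counts, so that 3 counts, the limit that a count of 0 allows, stand for 0.198 to 0.236 CPM, the unit of counts relative to the TMM-scaled library size. This limit covers counting error only. IGROV1Sen replicate 1 and IGROV1Res replicate 3 stood apart by their share of mitochondrially encoded counts, 7.02% and 6.94%, against 10.1% to 12.8% in the other libraries. Of 4 ovarian and Müllerian markers listed, only PAX8 was counted, and WT1, MUC16 and EMX2 were not analysed here. PAX8 was high in both forms (means of 832 and 819 CPM) and was not called. Of 5 epithelial markers, EPCAM (0.729 and 1.93 CPM, log2 1.38, adjusted p = 0.0351), KRT8 (7.94 and 53.8 CPM, log2 2.75, adjusted p = 5.13e-05) and KRT18 (295 and 1063 CPM, log2 1.85, adjusted p = 1.23e-05) were upregulated in edgeR's quasi-likelihood test, CDH1 (0.611 and 1.12 CPM) was not called, and KRT7 was too low to be tested. Their summed level was 270.4 to 355 CPM in IGROV1Sen and 1039 to 1277 CPM in IGROV1Res, and its part in the results was not tested. The sum of 4 fibroblast markers counted was 20.3 to 23.3 CPM in IGROV1Sen and 28.6 to 45.5 CPM in IGROV1Res, that of 2 endothelial markers 114 to 142 CPM and 175 to 178 CPM, and the 4 immune markers were not analysed here. Among the fibroblast markers, COL1A1 was downregulated (13.7 and 7.70 CPM). PDGFRB (8.46 and 27.0 CPM) and LUM (0.0262 and 1.64 CPM) were upregulated, and COL1A2 was too low to be tested. Most of the endothelial sum was CDH5, which was upregulated (113 and 165 CPM), while VWF was not called (9.99 and 11.6 CPM). In bulk RNA, fewer cells with a transcript and less of it per cell cannot be told apart.

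A gene was called upregulated or downregulated in IGROV1Res at an adjusted p under 0.05 in edgeR's quasi-likelihood test over 13791 genes, with log2 fold changes given as IGROV1Res over IGROV1Sen. Of the 37 pathway genes, 6 were upregulated (16.2%), 13 were downregulated (35.1%) and 18 were not called. Over all tested genes the shares were 17.4% upregulated and 18.3% downregulated, 35.7% in either direction, so the upregulated share of the pathway genes was near that of all genes and the downregulated share was above it. The median log2 fold change was -0.16 over the 37 genes and -0.01 over all tested genes. Changes of at least 1 on the log2 scale were called upward in 3 pathway genes and downward in 5, against 4.5% and 5.88% of all tested genes. The 6 libraries did not overlap between the groups in 25 of the 37 genes (67.6%), with IGROV1Res above in 8 and below in 17. Of all tested genes 47.8% had no overlap, 23.4% with IGROV1Res above and 24.5% with it below.

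**Figure D1:**
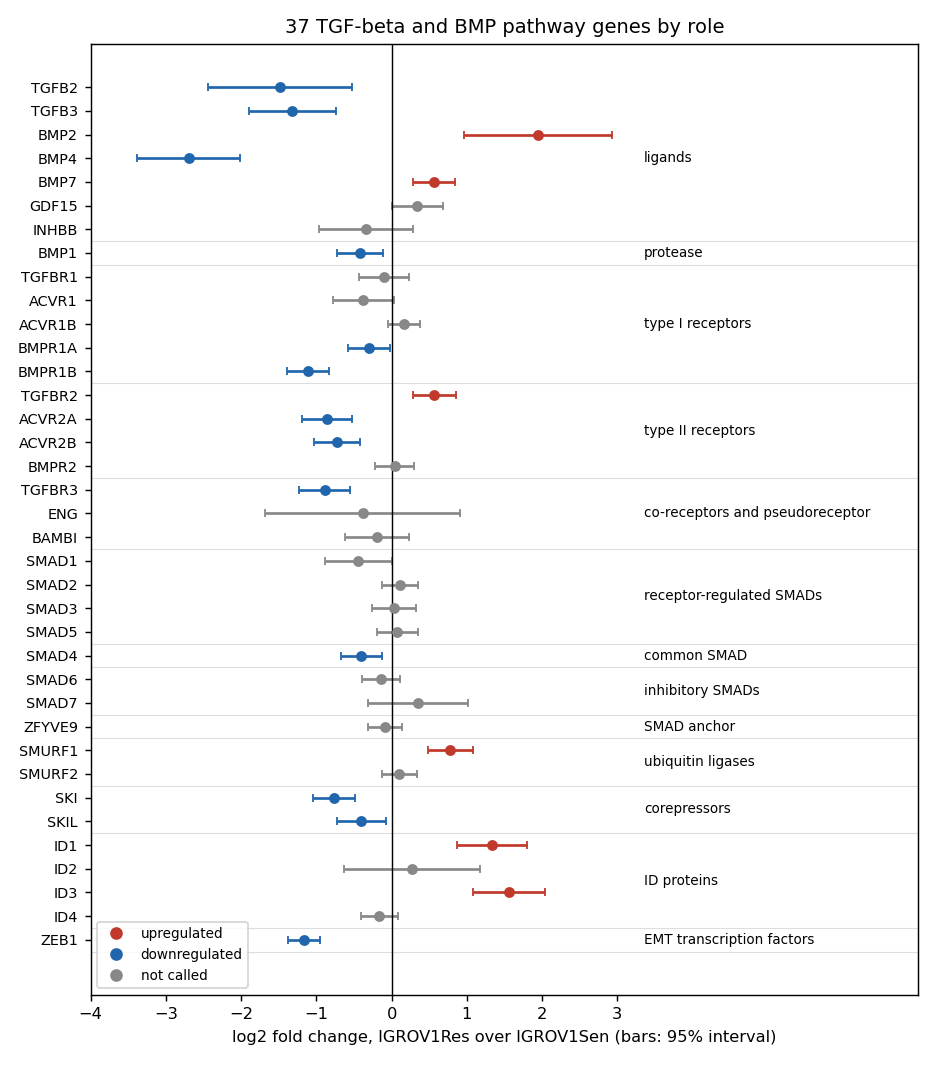
Log2 fold change of each of the 37 tested pathway genes in IGROV1Res over IGROV1Sen (x axis), with genes in rows grouped by role. Points are the edgeR estimates, bars are 95% intervals, red and blue mark genes called upregulated and downregulated, and grey marks genes not called. BMP2, ID3 and ID1 lie farthest to the right and BMP4 farthest to the left.

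The 6 upregulated genes were the ligands BMP2 and BMP7, the type II receptor TGFBR2, the ubiquitin ligase SMURF1 and the BMP targets ID1 and ID3. The 13 downregulated genes were the ligands TGFB2, TGFB3 and BMP4, the protease BMP1, the receptors BMPR1A, BMPR1B, ACVR2A and ACVR2B, the co-receptor TGFBR3, the common SMAD SMAD4, the corepressors SKI and SKIL, and the EMT transcription factor ZEB1. Of these 19 calls, 15 held in each of the other fits to the counts that tested the gene, and the exceptions were BMP1, BMPR1A, SKIL and SMAD4. There were 17 such fits, and TGFB2 was tested in 16, since the filter of at least 10 counts in every library removed it.

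To show the DNA just before the start of genes on which the results turn, the promoter windows of a BMP target that rose (ID1), of its relative that was not called (ID4), of a ligase that rose (SMURF1) and of the ligand with the largest decrease of the list (BMP4) are given from RefSeq on GRCh38.p14. The windows lie at chr20:31605039-31605282 on the plus strand for ID1, at chr6:19837120-19837369 on the plus strand for ID4, at chr7:99144109-99144358 on the minus strand for SMURF1 and at chr14:53955051-53955300 on the minus strand for BMP4, which falls within the annotated span of BMP4 but in no annotated exon. Capitals mark matches to 3 motifs, searched on both strands. GGCGCC is a motif that BMP SMADs bind. CAGAC and its reverse complement GTCTG hold the SMAD box. The TATA box was searched as TATAAA with its reverse complement TTTATA. The letters are 5′ to 3′ in the direction of transcription.
ID1: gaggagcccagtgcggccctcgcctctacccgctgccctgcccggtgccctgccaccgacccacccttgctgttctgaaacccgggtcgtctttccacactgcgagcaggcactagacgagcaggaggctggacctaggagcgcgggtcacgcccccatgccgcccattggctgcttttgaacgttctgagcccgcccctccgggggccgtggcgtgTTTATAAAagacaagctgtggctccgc
ID4: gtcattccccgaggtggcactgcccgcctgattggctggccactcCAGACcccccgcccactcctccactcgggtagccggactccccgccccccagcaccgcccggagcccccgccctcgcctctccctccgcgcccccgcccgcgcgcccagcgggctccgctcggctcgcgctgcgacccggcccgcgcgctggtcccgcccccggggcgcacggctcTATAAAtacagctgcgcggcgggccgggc
SMURF1: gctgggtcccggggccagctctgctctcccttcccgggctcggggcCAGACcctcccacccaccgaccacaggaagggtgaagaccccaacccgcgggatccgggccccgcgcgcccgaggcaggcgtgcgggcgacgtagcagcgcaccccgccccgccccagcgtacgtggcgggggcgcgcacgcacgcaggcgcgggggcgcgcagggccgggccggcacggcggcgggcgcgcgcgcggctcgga
BMP4: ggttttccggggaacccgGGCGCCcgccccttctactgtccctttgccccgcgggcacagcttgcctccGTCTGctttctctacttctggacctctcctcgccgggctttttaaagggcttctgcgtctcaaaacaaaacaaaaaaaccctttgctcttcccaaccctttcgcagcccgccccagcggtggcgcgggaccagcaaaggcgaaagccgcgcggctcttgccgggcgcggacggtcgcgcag

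The ID1 window held a palindromic stretch in which TTTATA and TATAAA overlap, counted as 2 matches, and no match to GGCGCC or CAGAC. The ID4 window held 1 match to CAGAC and 1 to TATAAA, the SMURF1 window 1 match to CAGAC, and the BMP4 window 1 match to GGCGCC and 1 to GTCTG. Windows of 250 bases were matched for 39 of the 45 listed genes by symbol. Unlike the windows printed above, these were not kept free of annotated exons. Those of BMPR1A, ACVR2A, SMAD2, SMAD7, ID3 and ZEB1 lay wholly within annotated exons. Among these 39, GGCGCC was present in 12, CAGAC or GTCTG in 14 and TATAAA or TTTATA in 6. Over 35116 promoter windows of the same table and of 250 bases, the shares were 16.4%, 38% and 10.7%. The 39 are 1 window per symbol, whereas the 35116 were not reduced in this way, so the sets are not alike. A match describes letters and is not evidence of binding.

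The largest increase and the largest decrease among the 37 genes were in the ligands BMP2 and BMP4. BMP2, a ligand of the BMP branch known for bone formation (ENSG00000125845, chr20:6767664-6780280, GRCh38), stood at 13.1, 5.09 and 5.46 CPM in IGROV1Sen replicates 1, 2 and 3 and at 41.6, 25.6 and 22.98 CPM in IGROV1Res replicates 1, 2 and 3. The groups did not overlap, and IGROV1Sen replicate 1 was the highest of its group. The mean was 7.87 ± 4.49 CPM in IGROV1Sen and 30.0 ± 10.1 CPM in IGROV1Res (SD, n = 3 each). BMP2 was upregulated 3.86-fold (log2 1.95, SE 0.35, 95% interval 0.96 to 2.93, adjusted p = 0.0025 in edgeR's quasi-likelihood test). The log2 fold change was 2.51 without IGROV1Sen replicate 1, and 2.67 when IGROV1Res replicate 3 was also left out.

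BMP4, which shares receptors with BMP2, went the other way (ENSG00000125378, chr14:53949736-53958761). It stood at 18.4, 12.7 and 13.3 CPM in IGROV1Sen and at 1.53, 2.87 and 2.38 CPM in IGROV1Res, so every resistant library was below every sensitive one. Its mean went from 14.8 ± 3.13 to 2.26 ± 0.677 CPM (SD, n = 3 each), a level 6.49-fold lower (log2 -2.70, SE 0.25, 95% interval -3.38 to -2.01, adjusted p = 5.13e-05 in edgeR's test). Within each library, the ratio of BMP2 to BMP4 per exon length was 0.607, 0.343 and 0.351 in IGROV1Sen and 23.2, 7.62 and 8.26 in IGROV1Res. BMP4 was thus the more abundant of the pair in all 3 sensitive libraries and BMP2 in all 3 resistant libraries.

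BMP7, a ligand of the same branch with roles in kidney development, was the most abundant of the 7 ligands counted on the per-length scale in both forms (ENSG00000101144, chr20:57168748-57266629). Its levels were 445, 376 and 384 CPM in IGROV1Sen and 545, 594 and 640.2 CPM in IGROV1Res. The 3 resistant libraries lay above the 3 sensitive ones, and BMP7 was upregulated 1.48-fold (log2 0.56, SE 0.10, 95% interval 0.29 to 0.84, adjusted p = 0.00205).

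The 2 TGF-beta ligands that were counted both decreased. TGFB3 (chr14:75958099-75982991), one of the isoforms that bind the TGF-beta receptors, stood at 4.72, 6.47 and 5.82 CPM in IGROV1Sen and at 2.41, 2.38 and 2.03 CPM in IGROV1Res. The groups were well apart, and the level was 2.49-fold lower in IGROV1Res (log2 -1.32, SE 0.21, 95% interval -1.90 to -0.73, adjusted p = 0.00121). TGFB2, an isoform that depends on the co-receptor TGFBR3 for strong receptor binding, rested on few reads, 21, 22 and 16 counts in IGROV1Sen and 8, 8 and 5 counts in IGROV1Res. In CPM these were 1.65, 1.45 and 1.12 against 0.585, 0.560 and 0.350, without overlap, and the level was 2.79-fold lower (log2 -1.48, SE 0.34, 95% interval -2.44 to -0.52, adjusted p = 0.00895).

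GDF15, a stress-induced and distant member of the family that signals through GFRAL, was at 132, 114 and 118 CPM in IGROV1Sen and at 183, 141 and 136 CPM in IGROV1Res. Its resistant libraries were all above the sensitive ones, but it was not called (log2 0.34, SE 0.12, adjusted p = 0.0542). It sat at the threshold, since 8 of the 17 other fits called it, the likelihood ratio test among them (adjusted p = 0.0314). INHBB, which encodes the activin B subunit, was at 3.11 to 3.57 CPM in IGROV1Sen and 2.05 to 2.94 CPM in IGROV1Res and was not called (log2 -0.34, adjusted p = 0.267). BMP1, which despite its name is a metalloprotease that processes procollagen and frees ligands from their antagonists, had a mean of 46.4 ± 3.33 CPM in IGROV1Sen and 34.7 ± 4.08 CPM in IGROV1Res (SD, n = 3 each) and was downregulated (log2 -0.42, adjusted p = 0.0146). That call was lost without IGROV1Sen replicate 2 (adjusted p = 0.0566), IGROV1Sen replicate 3 (0.0629) or IGROV1Res replicate 3 (0.0524).

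**Figure D2:**
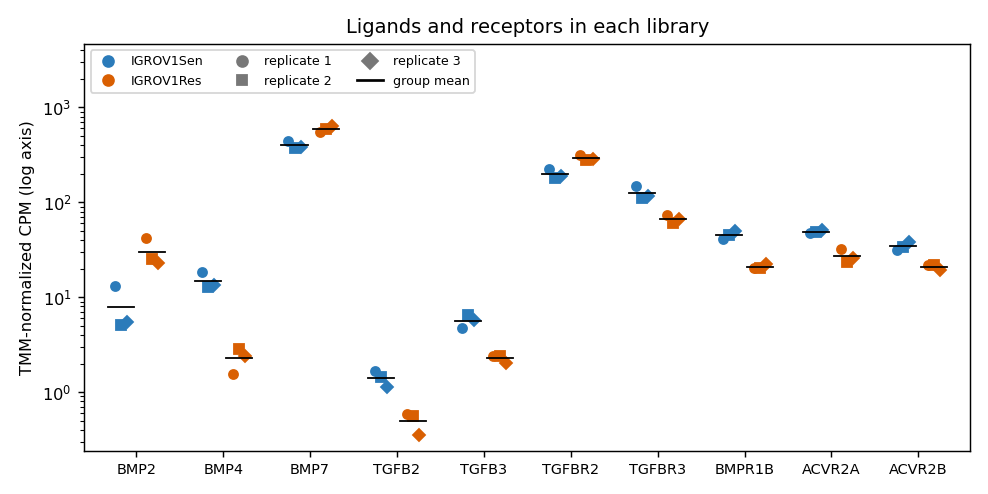
TMM-normalized CPM (log axis) of 5 ligands and 5 receptors in each library, in blue for IGROV1Sen and orange for IGROV1Res, with 1 marker shape per replicate number and a bar at the group mean. BMP2 and BMP4 exchange places between the forms, BMP7 and TGFBR2 are higher in IGROV1Res, and the others are lower, with no overlap between groups in any of the 10 genes.

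Of the 5 type I receptors, 2 were downregulated (40%), 3 were not called and 0 were upregulated in IGROV1Res. Over all tested genes 17.4% were upregulated and 18.3% downregulated. BMPR1B (ENSG00000138696, chr4:94757968-95158448), a BMP type I receptor, stood at 41.1, 45.4 and 49.3 CPM in IGROV1Sen and at 20.4, 20.2 and 22.3 CPM in IGROV1Res. The replicates were close together and far from the other group, and BMPR1B was 2.16-fold lower (log2 -1.11, SE 0.10, 95% interval -1.40 to -0.83, adjusted p = 5.39e-05). Its relative BMPR1A, the other receptor of BMP2 and BMP4, was at 48.0, 41.0 and 39.9 CPM against 32.8, 37.1 and 34.5 CPM. That difference was close to the threshold (log2 -0.30, SE 0.10, adjusted p = 0.0436) and was lost when any 1 library was left out (adjusted p = 0.0639 to 0.106). In each library, the ratio of BMPR1A to BMPR1B per exon length was 0.449 to 0.645 in IGROV1Sen and 0.858 to 1.02 in IGROV1Res.

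The 3 other type I receptors were not called. TGFBR1, the partner of TGFBR2, was at 26.9 to 31.3 CPM in IGROV1Sen and at 23.7 to 30.3 CPM in IGROV1Res, with overlapping groups (log2 -0.10, adjusted p = 0.541). ACVR1, a BMP and activin receptor also known as ALK2, was below in all resistant libraries, 10.2, 10.2 and 12.5 against 8.26, 8.69 and 8.41 CPM (log2 -0.38, adjusted p = 0.0695). ACVR1B, the activin type I receptor, was above in all resistant libraries, at 64.9 to 70.0 against 73.1 to 78.5 CPM, and was not called either (log2 0.17, adjusted p = 0.122).

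Among the 4 type II receptors, TGFBR2 rose while both activin receptors fell. TGFBR2 (ENSG00000163513, chr3:30606502-30694142), the receptor that binds TGF-beta first, was at 225, 181 and 188 CPM in IGROV1Sen and at 316, 278 and 287 CPM in IGROV1Res. All resistant libraries were above all sensitive ones, and TGFBR2 was upregulated 1.48-fold (log2 0.57, SE 0.10, 95% interval 0.29 to 0.85, adjusted p = 0.00219). ACVR2A, which binds activins and several BMPs, went from 48.0, 48.2 and 51.6 to 32.1, 23.7 and 25.8 CPM (log2 -0.86, SE 0.12, adjusted p = 0.000572). Of its 6770 exon bases, 430 overlap ORC4 on the other strand, and reads of the overlap cannot be told apart since the counting is not stated to use strand. ACVR2B, its close relative, went from 31.2, 34.2 and 38.2 to 21.8, 21.6 and 19.4 CPM (log2 -0.72, SE 0.11, adjusted p = 0.000961). BMPR2, the BMP type II receptor, was at 46.6 to 53.7 CPM in IGROV1Sen and 47.3 to 55.0 CPM in IGROV1Res, with overlapping groups and a log2 fold change of 0.04 (95% interval -0.22 to 0.30, adjusted p = 0.763).

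TGFBR3, or betaglycan, the co-receptor that presents TGF-beta to TGFBR2 and binds inhibin (ENSG00000069702, chr1:91680343-91906335), stood at 147, 109.8 and 118 CPM in IGROV1Sen and at 73.9, 60.8 and 67.2 CPM in IGROV1Res. No library of one group reached the other, and TGFBR3 was 1.85-fold lower (log2 -0.89, SE 0.12, 95% interval -1.23 to -0.55, adjusted p = 0.000558). The ratio of TGFBR2 to TGFBR3 per exon length was 2.82, 3.05 and 2.96 in the sensitive libraries and 7.91, 8.46 and 7.89 in the resistant ones, which was a narrow range within each group. ENG, or endoglin, a co-receptor of endothelial cells, was at 0.4203 to 1.61 CPM over the 6 libraries and its groups overlapped (log2 -0.39, adjusted p = 0.556). BAMBI, a pseudoreceptor that lacks a kinase domain, was at 13.9 to 20.4 CPM in IGROV1Sen and 14.4 to 15.1 CPM in IGROV1Res and was not called (log2 -0.20, adjusted p = 0.346).

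Of the receptor-regulated SMADs, 0 of 4 were called by edgeR's quasi-likelihood test, which called 35.7% of all tested genes. An unadjusted p under 0.05 was found in 1 of 4 (SMAD1), and the likelihood ratio test called 1 and DESeq2 0. SMAD3, a mediator of the TGF-beta branch, was at 192 to 247 CPM in IGROV1Sen and 206 to 226 CPM in IGROV1Res (log2 0.03, 95% interval -0.26 to 0.33, adjusted p = 0.829). SMAD2, of the same branch, was at 78.3 to 92.0 against 86.2 to 95.3 CPM (log2 0.11, 95% interval -0.13 to 0.35, adjusted p = 0.365). The groups overlapped in both genes, and in SMAD5 of the BMP branch, at 70.9 to 72.5 against 69.1 to 86.8 CPM (log2 0.07, 95% interval -0.20 to 0.35, adjusted p = 0.592). SMAD1, also of the BMP branch, was lower in all resistant libraries, 11.7, 12.2 and 10.2 against 9.43, 8.62 and 7.08 CPM, and fell short of the threshold (log2 -0.44, adjusted p = 0.0555), while the likelihood ratio test called it (adjusted p = 0.0359).

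SMAD4, the common partner of both branches, was at 36.4, 41.0 and 35.1 CPM in IGROV1Sen and at 28.9, 29.3 and 26.9 CPM in IGROV1Res. The groups did not overlap and SMAD4 was downregulated (log2 -0.40, SE 0.10, 95% interval -0.67 to -0.13, adjusted p = 0.0111), a call that was lost without IGROV1Sen replicate 2 (adjusted p = 0.0622). The inhibitory SMADs, which compete for receptors and recruit ubiquitin ligases, were not called. SMAD6 was at 72.3 to 77.2 against 63.0 to 74.9 CPM (log2 -0.15, adjusted p = 0.244) and SMAD7 at 3.07 to 3.50 against 3.29 to 5.39 CPM (log2 0.35, adjusted p = 0.283). ZFYVE9, or SARA, which anchors SMAD2 and SMAD3 at endosomes, was at 44.4 to 46.0 against 40.8 to 44.0 CPM, without overlap but within the error of the test (log2 -0.09, adjusted p = 0.433).

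Of the 2 SMURF ligases, which mark receptors and SMADs for degradation, 1 rose. SMURF1 (ENSG00000198742, chr7:99027438-99144100) stood at 132, 109 and 107 CPM in IGROV1Sen and at 219, 182 and 198 CPM in IGROV1Res. The resistant libraries were all higher, and the increase was 1.72-fold (log2 0.78, SE 0.11, 95% interval 0.48 to 1.08, adjusted p = 0.000535). Of its 6276 exon bases, 735 overlap TRRAP on the other strand. SMURF2 was at 43.9 to 49.6 against 48.1 to 51.6 CPM, with overlap (log2 0.10, 95% interval -0.13 to 0.33, adjusted p = 0.393), and the interval of SMURF2 lay below that of SMURF1. In each library, the ratio of SMURF1 to SMURF2 per exon length was 2.96, 2.65 and 2.71 in IGROV1Sen and 5.05, 3.92 and 4.43 in IGROV1Res.

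Both SMAD corepressors were downregulated. SKI (ENSG00000157933, chr1:2228695-2310119), which binds SMAD2, SMAD3 and SMAD4 and blocks transcription, was at 156, 152 and 153 CPM in IGROV1Sen and at 105, 81.1 and 85.0 CPM in IGROV1Res. The sensitive libraries were nearly level and the resistant ones all lower, 1.702-fold in the fit (log2 -0.77, SE 0.10, 95% interval -1.05 to -0.48, adjusted p = 0.000465). SKIL, or SnoN, which is itself a TGF-beta target in a negative feedback loop, was at 38.8, 30.7 and 32.0 against 26.4, 26.7 and 23.7 CPM (log2 -0.40, SE 0.12, adjusted p = 0.0235). The call for SKIL was lost without IGROV1Res replicate 2 (adjusted p = 0.0561), without IGROV1Res replicate 3 (0.0824), and without the pair of libraries of low mitochondrial share (0.0733).

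The ID genes split into a pair that rose and a pair that was not called. ID1 (ENSG00000125968, chr20:31605283-31606515), whose promoter window is given above, stood at 62.7, 48.2 and 44.6 CPM in IGROV1Sen and at 104, 157 and 129.6 CPM in IGROV1Res. The lowest resistant library was above the highest sensitive one, and ID1 was upregulated 2.52-fold (log2 1.33, SE 0.17, 95% interval 0.87 to 1.80, adjusted p = 0.000339). ID3 (ENSG00000117318, chr1:23557918-23559794) stood at 18.7, 19.2 and 21.8 CPM in IGROV1Sen and at 46.7, 75.9 and 54.2 CPM in IGROV1Res. It was upregulated 2.96-fold without overlap (log2 1.56, SE 0.17, 95% interval 1.09 to 2.04, adjusted p = 0.00016), and for both genes IGROV1Res replicate 2 was the highest library.

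ID4, by contrast, was at 291, 300.4 and 308 CPM in IGROV1Sen and at 258, 298 and 248 CPM in IGROV1Res, with overlapping groups (log2 -0.16, 95% interval -0.41 to 0.09, adjusted p = 0.19). ID2 was near the floor of the measurement, at 1.19 to 1.61 CPM in IGROV1Sen and 1.24 to 2.31 CPM in IGROV1Res (log2 0.27, 95% interval -0.63 to 1.17, adjusted p = 0.556), an interval wide enough to hold a change of the size of a doubling. The intervals of ID1 and ID3 lay wholly above that of ID4. Per exon length, the ratio of ID1 to ID4 was 0.409, 0.305 and 0.275 in the sensitive libraries and 0.769, 1.001 and 0.994 in the resistant ones, so that ID1 came to the level of ID4 in IGROV1Res replicates 2 and 3.

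ZEB1 (ENSG00000148516, chr10:31318495-31529814), a repressor of CDH1 and other epithelial genes in EMT, had the smallest adjusted p of the 37 genes. It stood at 75.8, 79.6 and 77.6 CPM in IGROV1Sen and at 34.3, 35.7 and 33.6 CPM in IGROV1Res, with replicates close together in both groups. ZEB1 was 2.25-fold lower (log2 -1.17, SE 0.08, 95% interval -1.38 to -0.96, adjusted p = 6.67e-06), and 366 of its 8650 exon bases overlap the antisense gene ZEB1-AS1. CDH1 itself, the target of ZEB1 for which it is best known, was at 0.611 CPM in IGROV1Sen and 1.12 CPM in IGROV1Res on average and was not called (log2 0.85, adjusted p = 0.136).

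**Figure D3:**
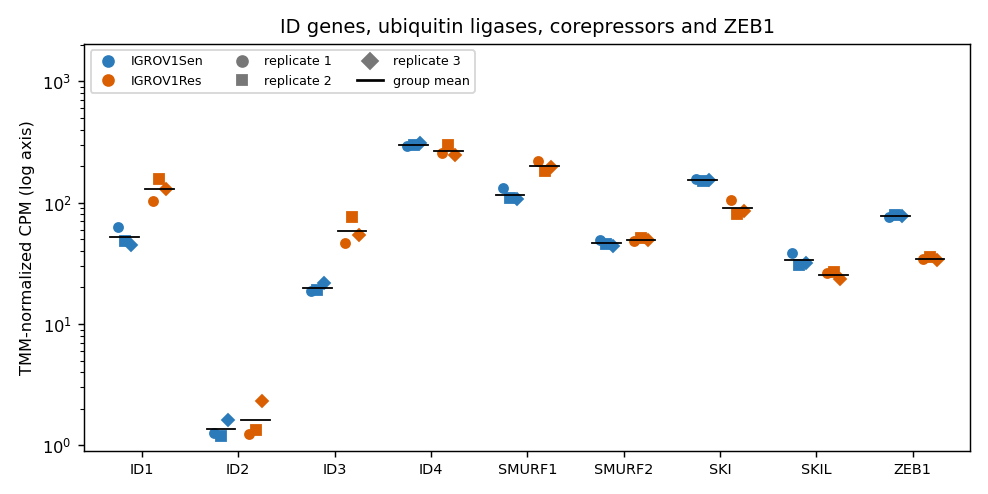
TMM-normalized CPM (log axis) of the 4 ID genes, the SMURF ligases, the corepressors SKI and SKIL, and ZEB1 in each library, in blue for IGROV1Sen and orange for IGROV1Res, with a bar at the group mean. ID1, ID3 and SMURF1 are higher in all IGROV1Res libraries, SKI, SKIL and ZEB1 are lower in all of them, and ID2, ID4 and SMURF2 overlap.

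To compare levels between genes, counts were also divided by exon length (RPKM, computed here). In IGROV1Sen the highest of the 37 genes were ID4 at 127.9 RPKM, BMP7 at 74.14, GDF15 at 58.08, TGFBR2 at 42.08 and ID1 at 42.01, the last 2 not separable at this precision. In IGROV1Res ID4 was at 114.3, BMP7 at 109.4, ID1 at 105.7, GDF15 at 73.54 and TGFBR2 at 62.41 RPKM. Several pathway genes changed place in this order. BMP2 moved from rank 30 (2.185 RPKM) to rank 12 (8.342 RPKM), BMP4 from rank 21 (4.802 RPKM) to rank 34 (0.7342 RPKM), and ID3 from rank 11 (11.08 RPKM) to rank 6 (32.79 RPKM). ZEB1 moved from rank 12 to rank 21, TGFBR3 from rank 9 to rank 14 and BMPR1B from rank 18 to rank 23. TGFB2 (0.2735 and 0.09675 RPKM) and ENG (0.2514 and 0.1929 RPKM) held the lowest places in both forms.

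The pathway genes lie on chromosomes whose genes as a whole differed between the forms. On chromosome 20, where BMP2, BMP7 and ID1 lie, the median log2 fold change of 365 tested genes was 0.22 and 34.25% were upregulated. On chromosome 3 (TGFBR2, ACVR2B, SKIL) the median was -0.27 with 37.61% downregulated, on chromosome 4 (BMPR1B) it was -0.22 with 35.03%, and on chromosome 14 (BMP4, TGFB3) it was -0.21 with 31.35%. Of 17 pathway genes on chromosomes with a median of at most -0.1, 10 were downregulated and 2, TGFBR2 and ID3, were upregulated. Of 8 on chromosomes with a median of at least 0.1, 3 were upregulated and 1, BMP1 on chromosome 8 (median 0.39), was downregulated. These limits were chosen after the values were seen. The changes of BMP2, ID1 and BMP4 differed from the median of their chromosome by 1.73, 1.12 and -2.49 on the log2 scale, that of BMP7 by 0.34 and that of SKIL by -0.13. The DNA copy number of these cells was not analysed here, and its part in these results was not tested.

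**Figure D4:**
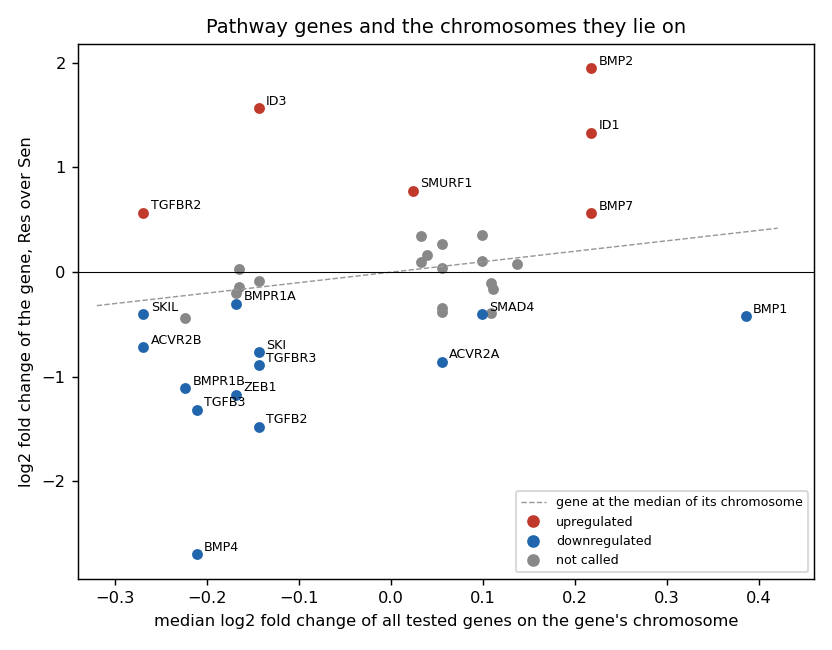
Log2 fold change of each of the 37 pathway genes (y axis) against the median log2 fold change of all tested genes on its chromosome (x axis), both IGROV1Res over IGROV1Sen, in red for upregulated, blue for downregulated and grey for genes not called, with a dashed line where both are equal. BMP2, ID1 and BMP7 stand on chromosome 20 (median 0.22), ID3 and TGFBR2 are above the line on chromosomes with medians of -0.14 and -0.27, and BMP1 is below it on chromosome 8 (0.39).

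Further genes of the pathway were taken from 7 lists written from general knowledge, together 172 genes, of which 122 were counted and 116 tested. The lists were chosen with earlier results of these data known. Their shares beside those of all genes are therefore a description and not a test. Of these, 27 were upregulated and 42 downregulated (23.3% and 36.2%, together 59.5%), against 17.4%, 18.3% and 35.7% of all tested genes. Their median log2 fold change was -0.14. Named are up to 3 called genes a list and direction, those with the largest changes where one group reached a mean of 5 CPM.

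Of 10 further ligands, 2 were upregulated (20%) and 4 downregulated (40%), with a median of -0.47. Over all tested genes 17.4% were upregulated and 18.3% downregulated. BMP6, a BMP known for iron regulation, rose from 27.2 ± 4.46 to 76.1 ± 10.8 CPM (SD, n = 3 each; log2 1.49, adjusted p = 6.46e-05). LEFTY1, an inhibitor of Nodal, fell from a mean of 13.3 to 3.63 CPM (log2 -1.87, adjusted p = 0.000724) and BMP8B, a BMP of thermogenic fat, from 11.7 to 3.24 CPM (log2 -1.85, adjusted p = 7.78e-05). With BMP2 and BMP7 up and BMP4 down, the BMP ligands thus changed in both directions. Among 9 further receptors and co-receptors, 1 rose (11.1%) and 3 fell (33.3%), with a median of -0.32. NRP2, a neuropilin that also binds TGF-beta, rose from 9.03 to 23.7 CPM (log2 1.398, adjusted p = 0.00133). NEO1, or neogenin, the receptor of the RGM co-receptors, fell from 43.0 to 8.02 CPM (log2 -2.42, adjusted p = 2.05e-06).

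In the list of latency, storage and activation, 4 of 17 genes were upregulated (23.5%) and 10 downregulated (58.8%), with a median of -1.02. The share called in either direction was 82.4%, against 35.7% of all tested genes. TGF-beta is secreted with its propeptide, bound by LTBP proteins to fibrillin microfibrils and released by integrins or proteases. The fibrillins moved in opposite directions. FBN1 was at 42.4, 43.3 and 39.1 CPM in IGROV1Sen and at 414, 409 and 384 CPM in IGROV1Res (log2 3.27, SE 0.09, adjusted p = 4.26e-08). FBN2 was at 143, 159 and 159 CPM against 3.29, 3.29 and 2.73 CPM, which was 49.4-fold lower (log2 -5.63, SE 0.12, adjusted p = 1.09e-08). Per exon length, the mean level was 2.591 RPKM for FBN1 and 11.63 RPKM for FBN2 in IGROV1Sen, and 25.05 and 0.2352 RPKM in IGROV1Res. ITGB8, whose integrin activates latent TGF-beta, rose from 31.8 to 57.2 CPM (log2 0.85, adjusted p = 0.000514). ITGAV, another integrin chain of the list, fell from 582 to 280 CPM (log2 -1.06, adjusted p = 5.81e-05). It lies outside the rule for named genes and was chosen after its values were seen. PLAU, the urokinase protease, rose from 31.9 to 50.9 CPM (log2 0.68, adjusted p = 0.0203). That call was lost without IGROV1Sen replicate 2 (adjusted p = 0.0729), IGROV1Sen replicate 3 (0.074) or IGROV1Res replicate 2 (0.0883). PCOLCE, an enhancer of BMP1, fell from 6.12 to 2.56 CPM (log2 -1.26, adjusted p = 0.00489). MMP14, a membrane metalloprotease, fell from 5.48 to 2.31 CPM (log2 -1.25, adjusted p = 0.0151), and this call was lost without IGROV1Sen replicate 3 or IGROV1Res replicate 2 (adjusted p = 0.0591 in each).

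Of 9 further genes listed as extracellular antagonists, KCP among them, 2 rose (22.2%) and 4 fell (44.4%), with a median of -0.05. The shares of all tested genes were 17.4% and 18.3%. SOST, or sclerostin, rose from 0.951 to 12.9 CPM (log2 3.75, adjusted p = 3.68e-06) and TMEFF1, a transmembrane protein that inhibits Nodal signalling in frog embryos, from 1.92 to 13.7 CPM (log2 2.83, adjusted p = 2.79e-05). CHRD, or chordin, which binds BMP2, BMP4 and BMP7, fell from 20.5 to 6.03 CPM (log2 -1.77, adjusted p = 8.26e-05). KCP, a chordin-like protein that in mice enhances BMP signalling, fell from 49.9 to 9.39 CPM (log2 -2.41, adjusted p = 9.69e-05), and FSTL1, a follistatin-like secreted protein, from 929.9 to 539 CPM (log2 -0.79, adjusted p = 0.00046).

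Of 39 intracellular regulators, 6 rose (15.4%), 13 fell (33.3%) and 20 were not called, with a median of -0.14. The share that rose was near the 17.4% of all tested genes, of which 18.3% fell. DAB2, an adaptor that links TGF-beta receptors to SMADs, rose from 0.944, 0.3304 and 0.140 CPM to 14.8, 20.1 and 18.4 CPM (log2 5.26, adjusted p = 9.81e-06), and its log2 fold change was 6.17 without IGROV1Sen replicate 1. TGIF1 and TGIF2, homeodomain corepressors of SMAD2 and SMAD3, moved apart. TGIF1 rose from 44.2 to 65.2 CPM (log2 0.56, adjusted p = 0.00723) and TGIF2 fell from 54.8 to 33.0 CPM (log2 -0.73, adjusted p = 0.000213). NEDD4, a ubiquitin ligase related to the SMURFs, rose from 7.52 to 11.5 CPM (log2 0.62, adjusted p = 0.032), a call lost when any library but IGROV1Sen replicate 1 was left out (adjusted p = 0.0503 to 0.122). HIPK2, a kinase that binds SMADs and SKI, fell from 158 to 77.6 CPM (log2 -1.03, adjusted p = 2.85e-05), and CTDSPL, a small phosphatase that acts on SMADs, fell from 146 to 86.7 CPM (log2 -0.75, adjusted p = 0.000887).

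The genes known to be induced by TGF-beta formed the list with a median above 0, with 9 of 22 upregulated (40.9%), 4 downregulated (18.2%) and a median of 0.43. Over all tested genes 17.4% rose and 18.3% fell. CNN1 and TAGLN, actin-binding proteins of smooth muscle, rose from 0.560 to 25.8 CPM (log2 5.53, adjusted p = 1.19e-05) and from 14.4 to 128 CPM (log2 3.16, adjusted p = 2.91e-05). CDKN1A, the cell cycle inhibitor p21, rose from 190.1 to 339 CPM (log2 0.83, adjusted p = 0.00041). VIM, the mesenchymal filament vimentin, fell from 467 to 80.9 CPM (log2 -2.53, adjusted p = 3.17e-07), and NEDD9, a scaffold of cell adhesion, from 205 to 108 CPM (log2 -0.92, adjusted p = 0.000111). COL1A1, the collagen I chain, was at 13.7 and 7.70 CPM (log2 -0.84, adjusted p = 0.0311), and its call was lost without IGROV1Sen replicate 2 (0.101), IGROV1Sen replicate 3 (0.097), IGROV1Res replicate 1 (0.0574) or IGROV1Res replicate 3 (0.0811). Changes of at least 1 on the log2 scale were called upward in 6 of the 22 genes and downward in 1, VIM. Over all tested genes the shares were 4.5% and 5.88%.

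Of 11 genes known to be induced by BMP, beside the pathway genes already described, 3 rose (27.3%) and 5 fell (45.5%), with a median of -0.24. The shares of all tested genes were 17.4% and 18.3%. MSX2, a homeodomain factor and BMP target, rose from 29.04 to 90.2 CPM (log2 1.64, adjusted p = 1.5e-05), KLF2, a zinc finger factor, from 6.45 to 21.8 CPM (log2 1.76, adjusted p = 0.000234) and LRIG1, a brake on receptor tyrosine kinases, from 38.8 to 49.4 CPM (log2 0.35, adjusted p = 0.0123), a call lost without IGROV1Sen replicate 2 (0.0549). ZNF503, a zinc finger corepressor, fell from 154 to 57.4 CPM (log2 -1.42, adjusted p = 1.6e-06) and GATA6, a GATA factor, from 34.0 to 22.4 CPM (log2 -0.61, adjusted p = 0.00592). GATA2, another GATA factor, was at 31.0 and 22.8 CPM (log2 -0.44, adjusted p = 0.0398), and its call was lost without IGROV1Sen replicate 1 (0.0807), IGROV1Sen replicate 3 (0.0511), IGROV1Res replicate 2 (0.0779) or IGROV1Res replicate 3 (0.13). With the pathway genes of this list counted in, 5 of 18 rose (27.8%), 5 fell (27.8%) and 8 were not called. ID1, ID3, MSX2, KLF2 and LRIG1 rose, while ID2, ID4, SMAD6, SMAD7 and BAMBI were among those not called.

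**Figure D5:**
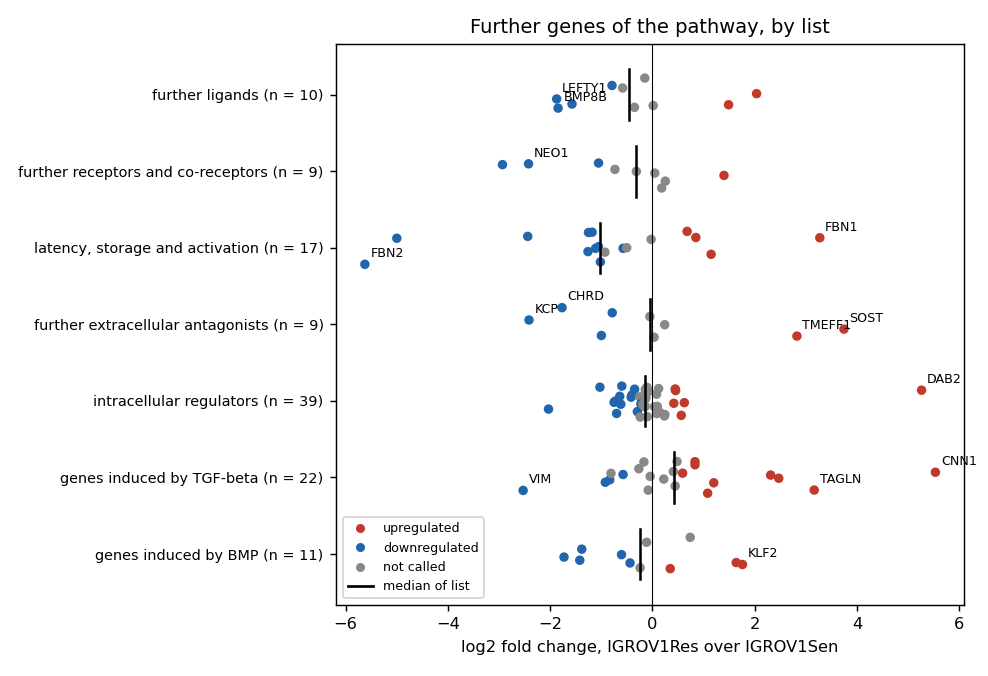
Log2 fold change in IGROV1Res over IGROV1Sen (x axis) of the tested genes of 7 further lists of the pathway (rows, with the number tested), in red for upregulated, blue for downregulated and grey for genes not called, with a black bar at the median of each list. The medians run from -1.02 for latency, storage and activation to 0.43 for genes induced by TGF-beta, and each list holds called genes on both sides of 0.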

How the data were processed

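Total RNA of IGROV1Sen and IGROV1Res cells was sequenced by the authors, and the groups of 3 libraries each were read from the labels. Raw read counts per Ensembl gene were made by the authors and deposited after quality control. The table has 14646 genes, and 1 of these had no count in any library. How genes were filtered, aligned and counted is not given in the sources used here. The submitters' processing notes name edgeR and hg18. Another deposited table holds the authors' log2 fold changes, average log2 CPM, likelihood ratios and p-values. Only its gene symbols were used (13200 genes, 14620 with a symbol after GENCODE release 29, which held 14611 of the identifiers and gave the GRCh38 coordinates and exon lengths).

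The counts were fitted with edgeR 4.0.16 in R 4.3.3, after filterByExpr with a minimum count of 10 and a minimum total of 15, and TMM scaling. The quasi-likelihood F-test compared the groups with no covariate, and Benjamini-Hochberg adjustment ran over 13791 genes. A standard error is the size of the log2 fold change divided by the root of its F value, and a 95% interval takes the t quantile at 4 degrees of freedom. RPKM, computed from TMM-scaled libraries, serve only to order genes. The members and lists were chosen with earlier results of these data known. The genes named are all 45 members, and of each further list up to 3 called genes per direction, taken by size of change, where the higher group had a mean of at least 5 CPM. Results of some genes are not reported here. IGROV1Sen replicates 2 and 3 were closer (chi-square per degree of freedom 1.47) than any other pair of a group (11.9 to 32.7). They differed by more than sampling noise, which does not show that they came from separate cultures, and were counted as 2. With both summed, 1605 genes were upregulated and 1892 downregulated, against 2394 and 2530 in the main fit, with 6 and 11 pathway genes. BMP1 (adjusted p = 0.056) and BMPR1A (0.0698) then lost their calls in edgeR's quasi-likelihood test. Other settings tried were the likelihood ratio test of edgeR, DESeq2 1.42.0, other scaling factors and filters, a replicate block, leaving out or summing libraries, leaving out mitochondrial genes and an adjusted p under 0.01. The steps were tested on simulated data. Other experiments of the study were not analysed here.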

Additional observations from a re-analysis of the deposited data

How the results depend on the processing

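Over all settings, 6 to 7 of the pathway genes were called upregulated and 9 to 14 downregulated, and of the further genes 19 to 35 and 34 to 46. No called gene among those named changed direction. Over all genes, an adjusted p under 0.01 left 1373 upregulated and 1584 downregulated (pathway genes 6 and 9). Leaving out 1 library gave 1538 to 3023 upregulated and 1814 to 2992 downregulated genes, with the fewest without IGROV1Sen replicate 3 (1538) and replicate 2 (1572 upregulated), and 6 to 7 and 10 to 13 pathway genes. Genes that were not called changed sign near 0. When 1 library was left out, the log2 fold change of BMPR2 ranged from -0.010 to 0.10, ENG from -0.61 to 0.15, SMAD3 from -0.037 to 0.16, SMAD5 from -0.033 to 0.14 and ID2 from -0.070 to 0.43. SMAD3 was at -0.024 with IGROV1Sen replicates 2 and 3 summed, and ID2 at -0.11 without the pair of libraries of low mitochondrial share. The labels number the replicates in both groups, but deviations from the group mean of same-numbered libraries correlated at -0.43, 0.10 and -0.40, and IGROV1Sen replicate 1 went best with IGROV1Res replicate 3 (0.55), so the numbers were not taken as pairs. With the replicate block, 1530 genes were upregulated and 1732 downregulated, with 6 and 10 pathway genes. The depth limits TGFB2, ENG and ID2 most, and 1 derivative of 1 cell line limits what any call speaks for.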

Other observations

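The following genes of the further lists lay outside the rule for named genes and were chosen after their values were seen. ACTA2, smooth muscle actin, was at 0.656 ± 0.161 CPM in IGROV1Sen and 3.71 ± 0.717 CPM in IGROV1Res (SD, n = 3 each; log2 2.47, adjusted p = 0.000252 in edgeR's quasi-likelihood test). CCN2, a matricellular protein, was at 13, 8 and 4 counts in IGROV1Sen and at 34, 41 and 52 counts in IGROV1Res (log2 2.31, adjusted p = 0.00171). Both are genes known to be induced by TGF-beta, and both rose from low levels without overlap between groups, while CCN1, a relative of CCN2, overlapped at a far higher level (257 ± 56.7 and 299.8 ± 27.2 CPM, log2 0.22, adjusted p = 0.266). FN1, the matrix protein fibronectin, overlapped as well (58.2 ± 8.17 and 81.3 ± 30.5 CPM, log2 0.48, adjusted p = 0.134).

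RGMA, a BMP co-receptor and ligand of NEO1, was at 30, 67 and 52 counts in IGROV1Sen and at 6, 8 and 5 counts in IGROV1Res (log2 -2.93, adjusted p = 0.000276), and so fell together with its receptor, whereas RGMB, its relative, overlapped (log2 0.18, adjusted p = 0.345). TLL1, a protease of the BMP1 family, was at 24, 37 and 47 counts in IGROV1Sen and at 2, 1 and 0 counts in IGROV1Res. INHBE, an activin subunit known from liver, was at 5, 13 and 13 counts against 38, 53 and 37 counts (log2 2.04, adjusted p = 0.00139). Of the genes of latency, storage and activation outside the rule, ITGAV (582 ± 19.6 and 280 ± 33.7 CPM, log2 -1.06), LTBP1 (79.1 ± 7.58 and 39.0 ± 4.79 CPM, log2 -1.02) and LTBP4 (144 ± 29.9 and 66.7 ± 3.06 CPM, log2 -1.11) were downregulated, with adjusted p = 5.81e-05, 0.000155 and 0.000371.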
